A study of Mus musculus with 6 samples.

Results

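The interferon-stimulated genes are described here as a set of 37 genes, chosen by symbol as known targets of type I or type II interferon and found by name among the 24411 genes of the deposited count table. They were measured by RNA sequencing of whole Achilles tendon in 6 libraries, 3 of wild type (WT) and 3 of Scx-Cre/Piezo1 GOF genotype, all from 18-week-old mice of strain C57BL/6. In the mutant, Cre named for the tendon gene Scx is combined with a gain-of-function (GOF) form of the stretch-activated channel Piezo1, while the RNA comes from all cells of the tissue. The labels do not say whether WT mice carried any allele of the cross, nor whether each library is a different animal, so the spread behind each p-value may be technical. Levels are given as CPM, the count relative to the scaled library size. Fold changes are log2 values with a standard error (SE), positive where Piezo1 GOF is higher. The quasi-likelihood test of edgeR was run on all 13466 genes with enough counts, and a gene is called where its p, adjusted over them by Benjamini-Hochberg, is under 0.05. Of the 37 genes, 34 passed the count filter and 3 (Oasl1, Mx1 and Isg15) did not.

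Interferons are secreted cytokines. Type I interferons bind the receptor of Ifnar1 and Ifnar2 and act through the kinases Jak1 and Tyk2 on a complex that holds Stat2 and Irf9 and binds the interferon-stimulated response element. Type II interferon (interferon-gamma) binds the receptor of Ifngr1 and Ifngr2 and acts through Jak1 and Jak2 on genes with a gamma-activated site. The induced genes encode sensors of viral RNA, antiviral proteins, GTPases that act on intracellular pathogens, and the proteasome subunits and transporter that supply peptides to MHC class I. Many are expressed at a low level without infection, in macrophages as well as in fibroblasts.

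Windows of 300 bases, from 250 before to 50 after the RefSeq gene start (GRCm38.p6), were found for 29 of the 37 genes. They were searched on both strands for the core of the interferon-stimulated response element (2 runs of GAAA with 2 bases between them) and for the gamma-activated site (TTCNNNGAA). The first stood in the windows of 13 of the 29 genes (44.8%), against 3.99% of 27025 genes with a window, and the second in those of 9 (31.0%), against 9.55%. In 1 window, that of Bst2, matches of both kinds overlapped. A match is a run of letters, not a measured binding site. The stretches below show the matches, in capitals, for those 6 of the genes with the smallest p-values whose window holds one, so that the elements can be seen beside the levels given further on.
Isg20 (chr7:78913315-78913394, plus strand, upstream): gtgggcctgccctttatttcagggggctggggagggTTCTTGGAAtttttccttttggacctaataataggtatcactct
Irf8 (chr8:120736160-120736239, plus strand, upstream): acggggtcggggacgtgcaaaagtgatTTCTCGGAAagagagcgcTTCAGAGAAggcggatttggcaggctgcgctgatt
Ifih1 (chr2:62646206-62646235, minus strand, in the first exon): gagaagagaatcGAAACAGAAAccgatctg
Ifit1 (chr19:34640759-34640838, plus strand, upstream): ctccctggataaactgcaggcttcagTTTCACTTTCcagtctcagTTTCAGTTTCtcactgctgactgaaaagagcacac
Psmb8 (chr17:34198087-34198116, plus strand, upstream of the RefSeq start and in an exon of GENCODE): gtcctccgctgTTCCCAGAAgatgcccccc
Igtp (chr11:58199476-58199555, plus strand, upstream): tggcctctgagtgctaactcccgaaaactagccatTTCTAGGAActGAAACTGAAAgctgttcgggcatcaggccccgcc

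Ifit1, the gene of an antiviral protein that binds viral RNA, carries 2 response elements on the reverse strand, 104 and 85 bases before its start, and no gamma-activated site in its window. Irf8 and Isg20 show the reverse, with gamma-activated sites only. In Igtp, whose product is a GTPase induced by interferon-gamma, both kinds lie within 45 bases of the start.

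No interferon-stimulated gene was called between the genotypes by edgeR. Of the 34 tested, 0 were called higher and 0 lower, against 0.0149% (2 genes) and 0% of all genes, and the smallest adjusted p was 0.165. At an unadjusted p under 0.05, 4 of 34 (11.8%) were higher in Piezo1 GOF, namely Isg20, Irf8, Ifih1 and Ifit1, against 10.2% of all genes, and 0 were lower, against 9.59%. In this fit the share at higher levels is near the background. By limma voom with sample quality weights, 10 of 34 were higher at an unadjusted p under 0.05, against 11.7% of all genes. Among other tests over all genes, edgeR's exact test called 0 in either direction (3.36% of all genes higher, 1.72% lower), and so did limma voom with sample quality weights (0.72% higher, 0.141% lower). DESeq2 called 1 of 36 higher, Oasl1, against 3.46% of all genes, and 0 lower, against 2.51%. The 3 libraries of Piezo1 GOF lay above all 3 of WT for 5 of 34 genes (14.7%; Stat2, Irf8, Ifih1, Usp18 and Parp9), against 13.6% of all genes, and below them for 0, against 12.1%.

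The fold changes were mostly positive. They ran from -0.54 (Igtp) to 1.40 (Isg20), 28 of 34 (82.4%) were positive against 49.7% of all genes, and the median was 0.34 against -0.0045 for all genes. Summed over the 37 genes, levels were 468, 359 and 361 CPM in WT replicates 1 to 3 and 475, 448 and 494 CPM in Piezo1 GOF replicates 1 to 3. WT replicate 1 stood with the mutant libraries rather than with the other WT libraries, and it held the highest WT value for 22 of the 34 tested genes. Without it, the median was 0.54, 7 of 34 genes were higher at an unadjusted edgeR p under 0.05 (background 13.1%), 15 of 34 lay above WT without overlap (background 23%), and again 0 were called (background 1.22% higher). Leaving out other libraries lowered the count in most cases: from 4 genes it went to 1 without WT replicate 3 (background 7.4%) and to 2 without WT replicate 2 (7.03%), Piezo1 GOF replicate 1 (10.5%) or Piezo1 GOF replicate 3 (8.7%), and to 5 without Piezo1 GOF replicate 2 (7.17%).

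**Figure D1:**
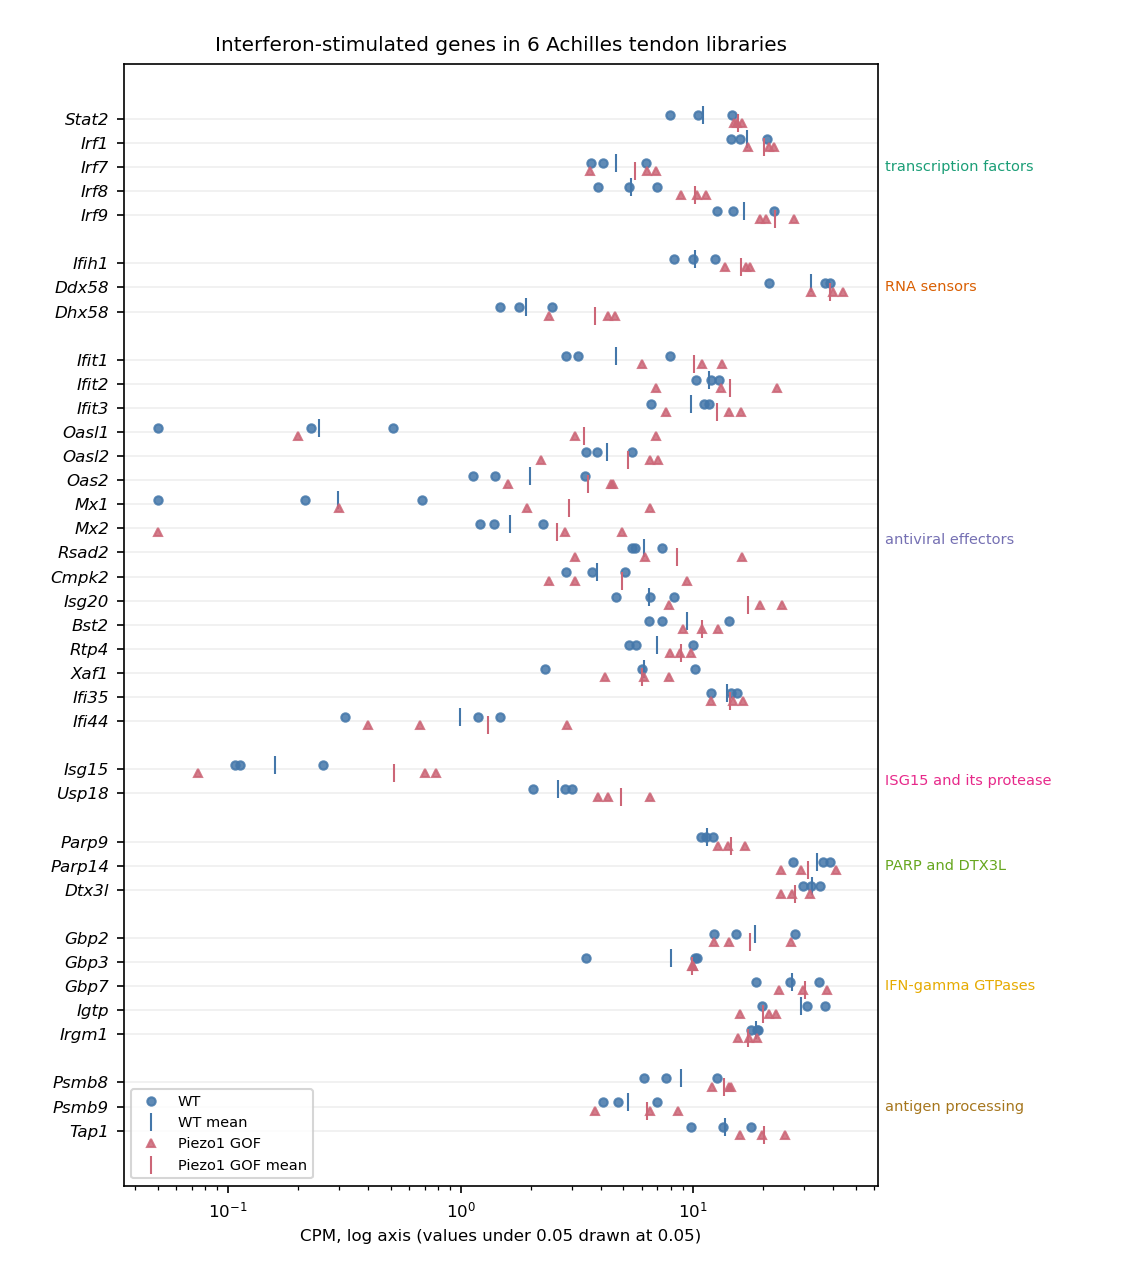
CPM (log axis) of the 37 interferon-stimulated genes, grouped by role, in each WT library (circles) and each Piezo1 GOF library (triangles), with the group means as vertical ticks. The groups overlap for most genes, and for Stat2, Irf8, Ifih1, Usp18 and Parp9 all mutant libraries lie above all WT libraries.

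Total counts per library lay between 8131527 and 17180856. The tissue label was checked with 10 tenocyte markers, whose summed level was 4999 to 14668 CPM in WT and 28533 to 49988 CPM in Piezo1 GOF. The skeletal muscle sum, given below, was above the tenocyte sum in every WT library and in Piezo1 GOF replicates 1 and 3. Macrophage, tenocyte and cartilage markers differed more between the genotypes than the interferon-stimulated genes did. Of 15 macrophage markers, with Lyz2 the most abundant, 12 were higher at an unadjusted edgeR p under 0.05 (10.2% of all genes were) and 0 lower (9.59%). Their median log2 fold change was 1.59, and their sum was 231 to 322 CPM in WT and 732 to 876 CPM in Piezo1 GOF (two-sided exact permutation p = 0.1, the smallest that 3 against 3 allows, and 0.22 adjusted over 11 marker lists). At the same edgeR threshold all 10 tenocyte markers (median log2 fold change 1.92) and all 5 cartilage markers (2.12) were higher. Skeletal muscle markers (16 genes, none at 0) summed to 65445, 144832 and 124462 CPM in WT replicates 1 to 3. In Piezo1 GOF they summed to 65468, 20662 and 55688 CPM. WT replicate 1 was thus also the WT library with the lowest muscle sum. Ttn was the most abundant muscle marker, with 64031 of a mean of 111580 CPM for WT and 23007 of 47273 CPM for the mutant. Endothelial markers summed to 1345 CPM in WT replicate 1 and to 684 and 809 CPM in the other WT libraries, against 492 to 725 CPM in Piezo1 GOF. Neutrophil markers summed to 6.67 to 17.3 CPM in WT and 51.8 to 123 CPM in Piezo1 GOF, cartilage markers to 511 to 3628 and 7328 to 21191 CPM, erythroid markers to 11.2 to 36.0 and 20.97 to 71.8 CPM, and dendritic cell markers to 10.6 to 14.4 and 7.52 to 27.1 CPM. The neutrophil sum was mostly Lcn2 (9.58 of a mean of 10.7 CPM for WT, 82.4 of 87.2 for the mutant), so it largely follows that gene. Only 3 of the 6 neutrophil markers passed the count filter. Of 9 markers of T and NK cells and 5 of B cells none had enough counts to be tested. Their sums were at most 3.39 and 0.566 CPM in any library, and Ms4a1 and Pax5 were at 0 in all 6. Of 4 plasmacytoid dendritic cell markers Ly6d was at 0 as well, and their sum, mostly Tcf4, was 246 to 332 CPM in WT and 306 to 449 CPM in Piezo1 GOF. The part of macrophage, neutrophil, endothelial or muscle RNA in the values of the interferon-stimulated genes was not tested, and in a bulk sample more cells of a type and more RNA per cell cannot be told apart.

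**Figure D2:**
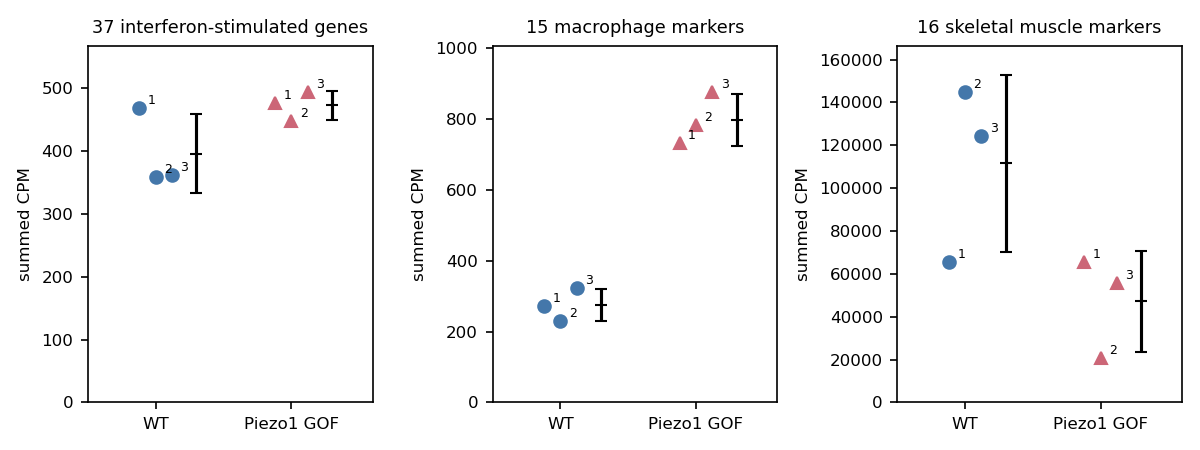
Summed CPM of the 37 interferon-stimulated genes, of 15 macrophage markers and of 16 skeletal muscle markers in each library, numbered by replicate, with the mean and SD of each genotype (n = 3) beside the points. Macrophage markers separate the genotypes (231 to 322 against 732 to 876 CPM), while for the interferon-stimulated genes WT replicate 1 (468 CPM) lies within the mutant range.

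The transcription factors of the pathway all had positive fold changes, and Irf8 had the largest. Irf8, a factor best known for its part in myeloid cell development, was at 6.98, 3.90 and 5.32 CPM in WT and at 11.3, 10.3 and 8.82 CPM in Piezo1 GOF. Every mutant value exceeded every WT value, with a log2 fold change of 0.92 ± 0.32 (edgeR unadjusted p = 0.0201, adjusted p = 0.191). With 1 library left out the unadjusted edgeR p was at most 0.0632, and it passed 0.05 when that library was Piezo1 GOF replicate 1 or either WT replicate 2 or 3. The gene (ENSMUSG00000041515.10) lies at chr8:120736358-120756694 on the plus strand of GRCm38.

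Stat2, a subunit of the type I complex, was at 10.5, 14.6 and 7.92 CPM in WT and at 15.5, 16.2 and 14.98 CPM in Piezo1 GOF. The groups did not overlap, though WT replicate 2 came close to the lowest mutant library (log2 fold change 0.49 ± 0.28; edgeR adjusted p = 0.353). Irf9, the DNA-binding member of that complex, was at 22.1, 14.9 and 12.7 CPM in WT and 20.5, 19.4 and 27.1 CPM in Piezo1 GOF, and here WT replicate 1 overlapped the mutant group (0.44 ± 0.27; adjusted p = 0.396). Irf1, induced by interferon-gamma (0.24 ± 0.24), and Irf7, which amplifies the type I response (0.26 ± 0.41), overlapped between the genotypes. In the annotation Irf9 shares exon sequence with Rnf31 and Irf7 with Phrf1, so both values are uncertain.

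Among the sensors of cytosolic viral RNA, Ifih1 differed most relative to its spread. Ifih1, which encodes MDA5, was at 12.4, 9.96 and 8.26 CPM in WT and at 13.7, 17.5 and 16.9 CPM in Piezo1 GOF. The groups did not overlap, and the log2 fold change was 0.65 ± 0.26 (edgeR unadjusted p = 0.0329, adjusted p = 0.220). Leaving out WT replicate 2 or 3, or Piezo1 GOF replicate 2 or 3, took the unadjusted edgeR p over 0.05, to at most 0.111. Dhx58, which encodes the regulator LGP2, was low, at 2.47, 1.79 and 1.47 CPM in WT and 4.29, 2.41 and 4.60 CPM in Piezo1 GOF. Piezo1 GOF replicate 2 fell just inside the WT range (0.98 ± 0.48; adjusted p = 0.291). Ddx58, which encodes RIG-I and was the most abundant sensor, had a fold change of 0.27 ± 0.27 with overlapping groups.

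The antiviral effectors had groups that overlapped for all 14 tested of 16, and several differed widely between mutant libraries. Isg20, an exonuclease that degrades RNA, had the largest fold change of the set. It was at 8.27, 6.51 and 4.64 CPM in WT and at 19.4, 24.2 and 7.86 CPM in Piezo1 GOF, so replicates 1 and 2 were high and replicate 3 lay within WT (1.40 ± 0.43; edgeR unadjusted p = 0.01, adjusted p = 0.165). Its unadjusted p stayed under 0.05 without any 1 library (at most 0.0449, by edgeR), but it was over 0.05 by limma voom with quality weights, where the fold change was 0.98. Isg20 (ENSMUSG00000039236.18) lies at chr7:78913424-78920396 on the plus strand of GRCm38. Ifit1 was at 7.95, 3.19 and 2.83 CPM in WT and at 13.3, 6.02 and 10.9 CPM in Piezo1 GOF. WT replicate 1 lay above Piezo1 GOF replicate 2 (1.11 ± 0.48; unadjusted p = 0.0466, adjusted p = 0.249), and the unadjusted edgeR p reached 0.151 when 1 library was left out, passing 0.05 without WT replicate 2 or 3 or Piezo1 GOF replicate 1 or 3.

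A cluster of classical type I targets was high in Piezo1 GOF replicate 1 and low in replicate 2. Oasl1, an inhibitor of Irf7 translation, had 0, 8 and 2 counts in WT and 53, 2 and 42 counts in Piezo1 GOF. Replicates 1 and 3 were high and replicate 2 was at the WT level. Too few libraries held counts for the filter; DESeq2, with a lower filter of its own, called Oasl1 higher (adjusted p = 0.0360), and edgeR without a filter did not (adjusted p = 0.149). Mx1, a dynamin-like GTPase gene that is defective in most inbred laboratory mice, had 2, 0 and 6.43 expected counts in WT and 50, 3 and 26 in Piezo1 GOF (DESeq2 adjusted p = 0.0775; edgeR without a filter 0.200). Its paralogue Mx2 was at 1.40, 1.21 and 2.26 CPM in WT and 4.94, 0 and 2.82 CPM in Piezo1 GOF, where the 0 of replicate 2 allows up to 0.301 CPM (3 counts, counting error only).

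The same replicate stood out for the neighbouring genes Rsad2 and Cmpk2. Rsad2, which encodes viperin, was at 5.48, 5.62 and 7.35 CPM in WT and at 16.3, 3.11 and 6.23 CPM in Piezo1 GOF. Cmpk2, a mitochondrial nucleotide kinase that supplies viperin's pathway, was at 3.65, 5.11 and 2.83 CPM and at 9.36, 2.41 and 3.11 CPM. In both, Piezo1 GOF replicate 1 was the highest and replicate 2 the lowest of all 6 libraries. Without Piezo1 GOF replicate 1 the fold changes turned from 0.46 to -0.39 for Rsad2, from 0.34 to -0.49 for Cmpk2, from 0.67 to -0.16 for Mx2 and from 0.39 to -0.82 for Ifi44, so their direction rested on that library. The sign for Ifi44 also turned by voom and without WT replicate 2, and that for Mx2 with the replicate block. Over the 16 effectors, Piezo1 GOF replicate 1 was the highest mutant library for 9 and replicate 2 the lowest for 11.

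The remaining effectors overlapped between the genotypes. Fold changes were 0.30 ± 0.40 for Ifit2, 0.37 ± 0.36 for Ifit3, 0.31 ± 0.49 for Oasl2, 0.83 ± 0.62 for Oas2, 0.22 ± 0.36 for the tethering protein gene Bst2, 0.34 ± 0.34 for Rtp4, 0.047 ± 0.24 for Ifi35, 0.39 ± 0.89 for Ifi44 and -0.012 ± 0.53 for the apoptosis factor gene Xaf1. Ifit2 went against the pattern of its relatives Ifit1 and Ifit3, with its lowest value of all libraries in Piezo1 GOF replicate 1 (6.89 CPM) and its highest in replicate 2 (23.0 CPM). The sign for Xaf1 turned positive with upper-quartile scaling, with total counts, by voom, with the replicate block and when replicate 1 of either genotype was left out. Ifit3 has a near-identical neighbour, Ifit3b (1.21 ± 0.830 CPM in WT, 1.97 ± 0.684 CPM in Piezo1 GOF; SD, n = 3), so reads may be split between the pair and its value is uncertain.

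**Figure D3:**
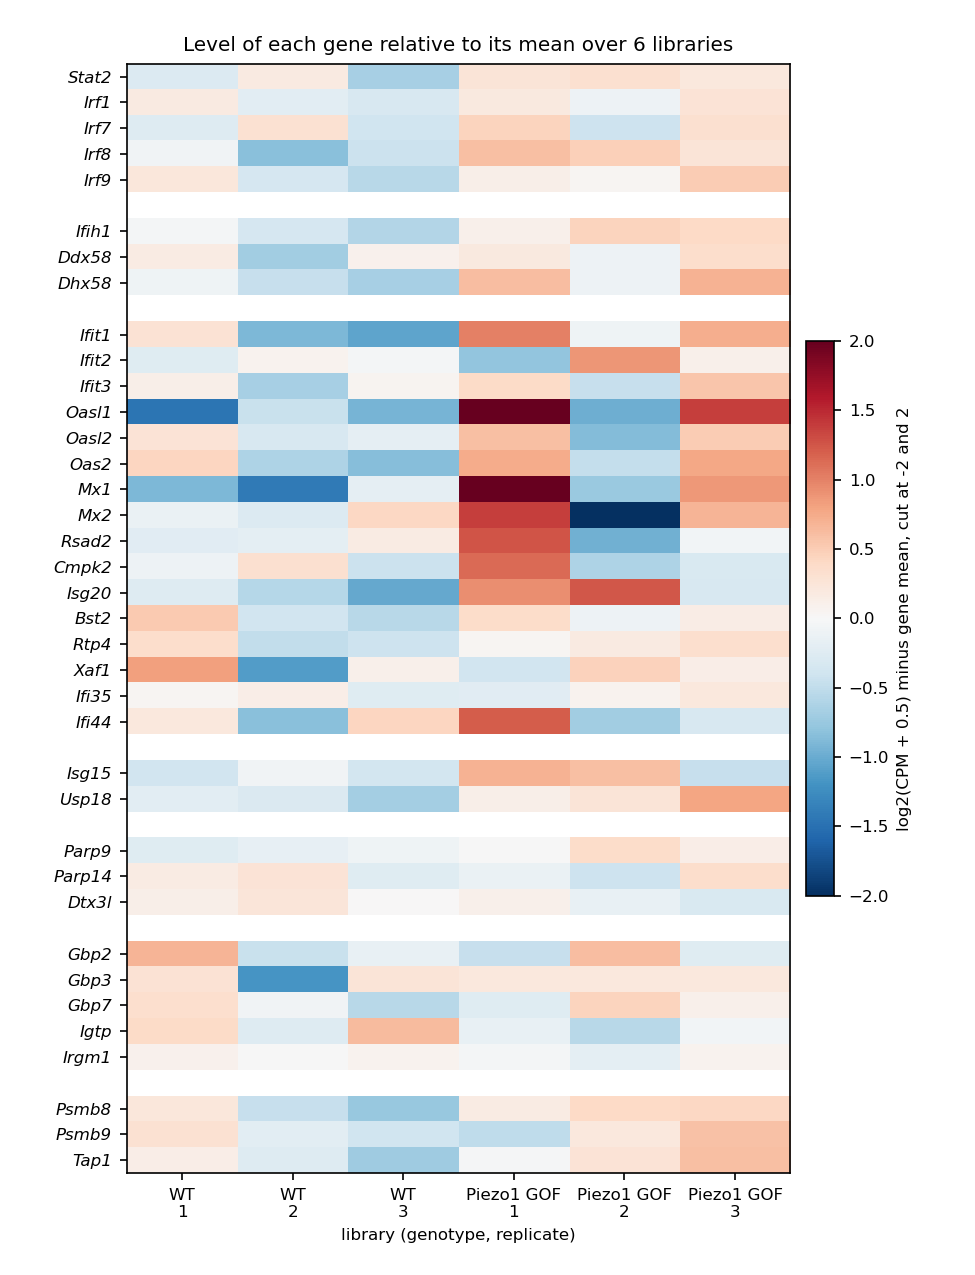
Level of each of the 37 genes in each library as log2(CPM + 0.5) minus the gene's mean over the 6 libraries, with colours cut at -2 and 2. In the block of antiviral effectors Piezo1 GOF replicate 1 is high for Oasl1, Mx1, Mx2, Rsad2 and Cmpk2 while replicate 2 is low for the same 5 genes.

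Isg15, a ubiquitin-like protein gene that is among the most induced in an interferon response, was very low. It had 1, 4 and 1 counts in WT and 6, 7 and 1 counts in Piezo1 GOF, too few to test. Usp18, the protease that removes ISG15 from proteins and damps the type I receptor, was at 3.01, 2.81 and 2.04 CPM in WT and at 3.90, 4.31 and 6.52 CPM in Piezo1 GOF. The groups did not overlap, with a fold change of 0.91 ± 0.42 (edgeR unadjusted p = 0.0592, adjusted p = 0.269).

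The ADP-ribosyltransferase genes and their ubiquitin ligase partner moved in no common direction. Parp9 was at 10.7, 11.4 and 12.1 CPM in WT and at 12.7, 16.7 and 14.2 CPM in Piezo1 GOF, without overlap (0.35 ± 0.24; edgeR adjusted p = 0.432). Dtx3l, whose product forms a complex with that of Parp9, had a fold change of -0.24 ± 0.20 and Parp14 one of -0.12 ± 0.26, both with overlapping groups. Parp9 and Dtx3l lie head to head and share exon sequence on opposite strands in the annotation, as do Psmb9 and Tap1, so without a known strand setting reads in the shared part cannot be told apart.

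The GTPases induced by interferon-gamma did not differ in a common direction either. Igtp was at 30.7, 19.7 and 36.8 CPM in WT and at 21.2, 15.8 and 22.8 CPM in Piezo1 GOF, the largest negative fold change of the set (-0.54 ± 0.28; edgeR unadjusted p = 0.0837, adjusted p = 0.309). The groups overlapped through WT replicate 2, and Igtp shares exon sequence with Irgm2 on the same strand, so its counts are uncertain. Irgm1 varied little, between 15.5 and 19.01 CPM over all libraries (-0.11 ± 0.21). Gbp2 shares exon sequence with Mir6381 on the other strand. The guanylate-binding protein genes Gbp2 (-0.054 ± 0.39), Gbp3 (0.32 ± 0.41) and Gbp7 (0.19 ± 0.28) overlapped between the genotypes, and the sign for Gbp2 turned with total counts and without WT replicate 1, Piezo1 GOF replicate 1 or Piezo1 GOF replicate 3. They are similar paralogues in 1 cluster on chromosome 3, between which reads may be split.

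The antigen processing genes had positive fold changes. Psmb8, a catalytic subunit of the immunoproteasome, was at 12.7, 7.66 and 6.11 CPM in WT and 12.1, 14.2 and 14.5 CPM in Piezo1 GOF (0.63 ± 0.32; edgeR unadjusted p = 0.0801, adjusted p = 0.303). Tap1, a subunit of the transporter that carries peptides into the endoplasmic reticulum, was at 17.7, 13.5 and 9.73 CPM in WT and 15.9, 19.7 and 24.8 CPM in Piezo1 GOF (0.56 ± 0.29; adjusted p = 0.311). In both genes WT replicate 1 reached into the mutant range and the other WT libraries lay below it. Psmb9, the neighbour of Tap1, had a fold change of 0.27 ± 0.41.

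**Figure D4:**
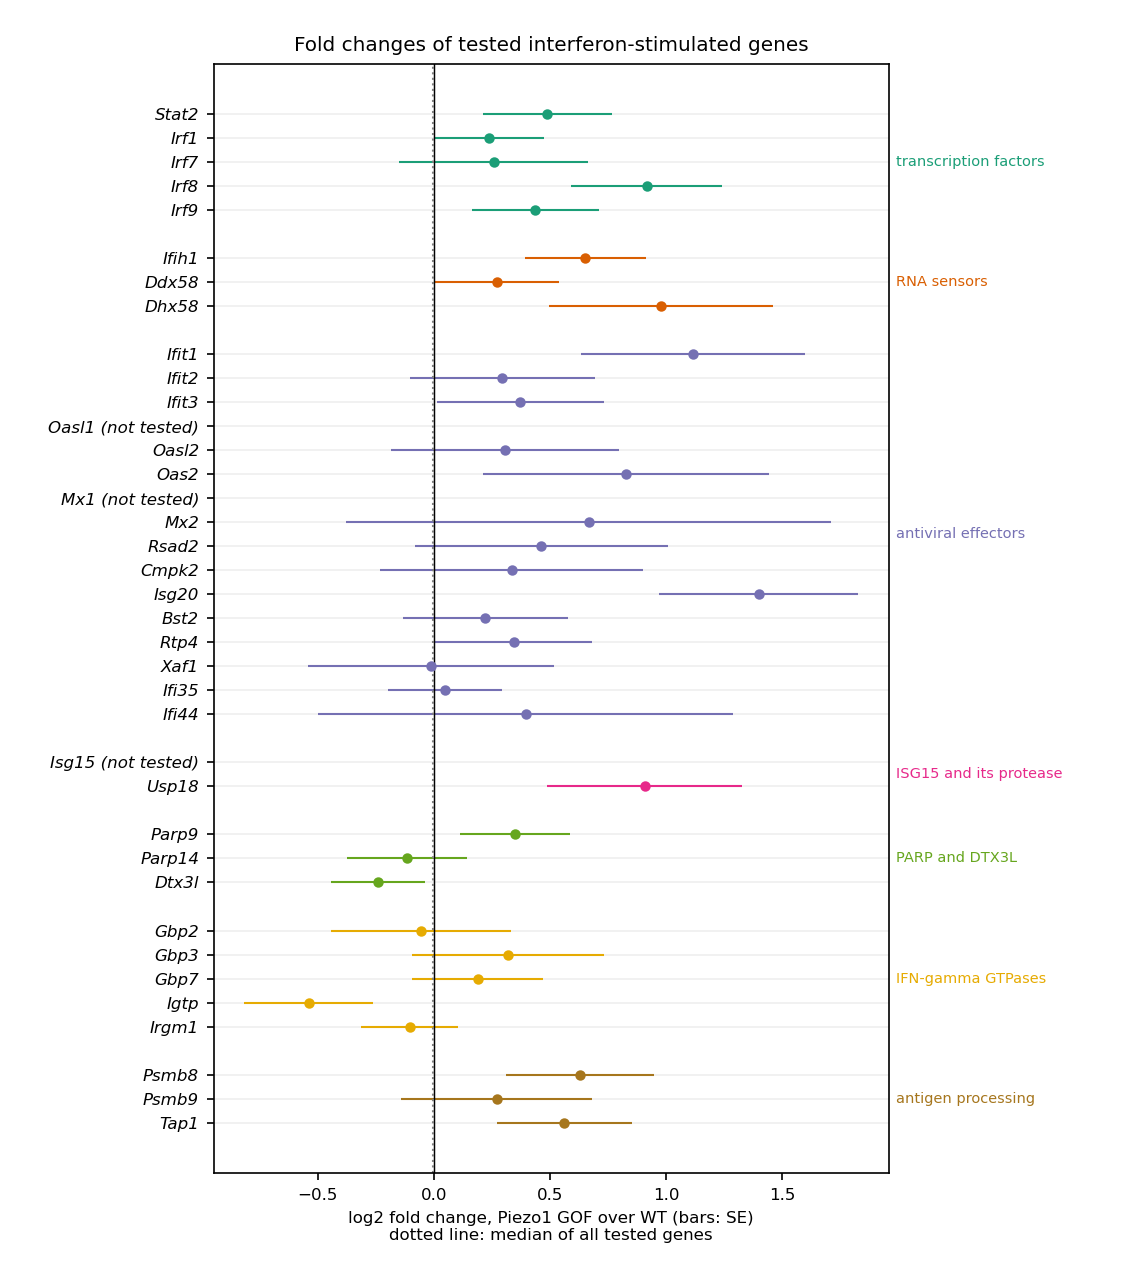
Log2 fold change (Piezo1 GOF over WT) with its SE for the 34 tested genes, by role, with the median of all tested genes as a dotted line. Values run from -0.54 for Igtp to 1.40 for Isg20, and the 3 genes with too few counts have no point.

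Per kilobase of exon sequence, so that genes can be compared, levels in WT were highest for Igtp (14.4 ± 4.29 CPM per kilobase; SD, n = 3), Bst2 (10.4 ± 4.75), Ifi35 (8.07 ± 1.07) and Gbp2 (7.29 ± 3.21). Igtp and Bst2 differed by less than the SD of either, and so did Ifi35 and Gbp2, while Bst2 and Ifi35 differed by more than the SD of Ifi35 and less than that of Bst2. In Piezo1 GOF the order was led by Bst2 (12.1 ± 2.06 CPM per kilobase), Igtp (9.86 ± 1.79) and Isg20 (9.21 ± 4.51). Isg20 moved from place 11 to place 3. In Piezo1 GOF, however, Bst2, Igtp and Ifi35 (8.34 ± 1.30) differed from Isg20 by less than its SD, so its place there was not resolved. With the longest transcript in place of all exons as the length, Isg20 was at 5.96 CPM per kilobase in WT and 15.8 in Piezo1 GOF. The lowest in WT were Mx1 (0.0787 ± 0.0917 CPM per kilobase), Oasl1 (0.0942 ± 0.0982) and Ifi44 (0.162 ± 0.0977), all strongly inducible genes.

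The rest of the pathway was followed with 103 further genes of the table, from ligands to other targets, of which 85 were tested. By edgeR 0 were called, 17 (20.0%) were higher at an unadjusted p under 0.05, against 10.2% of all genes, and 3 (3.53%) lower, against 9.59%. DESeq2 called 4 higher (Tlr9, Ifi30, Tapbp and Ccl5) and 1 lower (Mavs) of 90, edgeR's exact test 3 higher (Tlr9, Ifi30 and Ccl5) of 85, and voom 0. Over all genes DESeq2 called 3.46% higher and 2.51% lower and the exact test 3.36% higher, so these counts lie near or under the background. The 17 higher at an unadjusted edgeR p under 0.05 became 10 without WT replicate 2 (background 7.03%). They became 11 without WT replicate 3 (7.4%), Piezo1 GOF replicate 2 (7.17%) or Piezo1 GOF replicate 3 (8.7%). Over all libraries left out in turn, the count ran from 10 to 22 and the background from 7.03% to 13.1%. The median log2 fold change was 0.25.

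Most interferon genes had no counts. Of 10 ligand genes, 9, among them Ifnb1, 4 interferon-alpha genes and Ifng, were at 0 in all 6 libraries, which allows up to 0.192 to 0.390 CPM in a library (3 counts, counting error only). Ifnk, the interferon of keratinocytes, had 0, 0 and 1 counts in WT and 4, 3 and 5 counts in Piezo1 GOF.

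Of 6 receptor genes, 5 were tested. At an unadjusted edgeR p under 0.05, 2 were higher and 1 was lower, against 10.2% and 9.59% of all genes. Ifnlr1, of the type III interferon receptor, had too few counts, and Il10rb, its partner chain, had a fold change of 0.15 ± 0.23. Ifnar2 was at 24.9, 16.03 and 16.9 CPM in WT and at 32.8, 29.7 and 29.6 CPM in Piezo1 GOF, without overlap (0.67 ± 0.23; edgeR unadjusted p = 0.018, adjusted p = 0.187). Ifnar1, the other chain, had a fold change of 0.33 ± 0.22. For the interferon-gamma receptor, Ifngr1 had a fold change of 0.98 ± 0.42 that rested on Piezo1 GOF replicate 2 (437 CPM against 135 and 178 CPM in replicates 1 and 3; 0.33 without it), and Ifngr2 was lower in all mutant libraries, at 60.0, 64.4 and 86.5 CPM in WT and 51.0, 36.5 and 55.2 CPM in Piezo1 GOF (-0.56 ± 0.24; edgeR adjusted p = 0.244). The kinases Jak1 (0.44 ± 0.21), Jak2 (0.077 ± 0.22) and Tyk2 (-0.10 ± 0.18) had an unadjusted edgeR p over 0.05, and of the 7 tested kinases and factors 0 were under it.

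Among 13 tested sensing genes, 2 (15.4%) were higher at an unadjusted edgeR p under 0.05, against 10.2% of all genes. Only 1 (7.69%) was lower, against 9.59%, and edgeR called 0. The 2 higher genes encode sensors that act in endosomes of immune cells, and the lower gene encodes an adaptor. Tlr9, the receptor for unmethylated DNA, was at 2.04, 0.639 and 1.24 CPM in WT and 4.81, 8.02 and 4.52 CPM in Piezo1 GOF (2.16 ± 0.55; edgeR adjusted p = 0.125; DESeq2 adjusted p = 0.0111). Tlr7, for single-stranded RNA, had a fold change of 1.82 ± 0.57. Mavs, the mitochondrial adaptor of RIG-I and MDA5, was at 147, 248 and 185 CPM in WT and at 127, 61.6 and 99.1 CPM in Piezo1 GOF, with the highest value in the library with the highest muscle sum and the lowest in that with the lowest (-1.01 ± 0.32; edgeR adjusted p = 0.168; DESeq2 adjusted p = 0.0402). The part of muscle RNA in the Mavs value was not tested.

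Of 6 inhibitors of the pathway, 3 were higher at an unadjusted edgeR p under 0.05 (10.2% of all genes were), and the same 3 did not overlap between the genotypes (13.6% of all genes). Socs1, which blocks the Jak kinases, was low, at 0.752, 1.02 and 0.339 CPM in WT and 2.47, 2.71 and 1.85 CPM in Piezo1 GOF (1.68 ± 0.59; edgeR adjusted p = 0.188). The phosphatase gene Ptpn6, characteristic of blood cells (1.19 ± 0.42), and Pias1 (0.80 ± 0.28) were the other two. Socs3, Ptpn2 and Ptpn11 were not under 0.05.

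Among 54 other tested targets, at an unadjusted edgeR p under 0.05, 10 (18.5%) were higher and 1 (1.85%) was lower, against 10.2% and 9.59% of all genes. Ccl5, a chemokine gene, had the largest fold change, at 0.107, 0.447 and 0.339 CPM in WT and 1.56, 1.81 and 13.9 CPM in Piezo1 GOF (4.17 ± 1.02; edgeR adjusted p = 0.120; DESeq2 adjusted p = 0.00116), and without Piezo1 GOF replicate 3 it was 2.40. Ifi30, a lysosomal thiol reductase gene of antigen-presenting cells, was at 16.9, 6.20 and 12.6 CPM in WT and 21.3, 36.6 and 44.0 CPM in Piezo1 GOF (1.53 ± 0.40; edgeR adjusted p = 0.128; DESeq2 adjusted p = 0.0129). The others that were higher were Tapbp (0.65 ± 0.19), a chaperone of MHC class I loading, its regulator gene Nlrc5 (0.77 ± 0.26), the light chain gene B2m (0.96 ± 0.38), Epsti1 (1.87 ± 0.59), Slfn8 (1.76 ± 0.56), Ddx60 (1.13 ± 0.40), Lgals3bp (0.88 ± 0.38) and Ifitm2 (0.81 ± 0.34). Of the same pathway of antigen processing, Tap2, Psmb10, Psme1 and Psme2 had an unadjusted edgeR p over 0.05, as had Psmb8, Psmb9 and Tap1. Gbp6 was the lower gene (-0.64 ± 0.26). Several of these, such as Tlr7, Tlr9, Ptpn6 and Ifi30, are genes that macrophages express. The macrophage marker sums given above were higher in Piezo1 GOF too, and so were the tenocyte and cartilage sums. The part of any of these cells in the values was not tested.

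**Figure D5:**
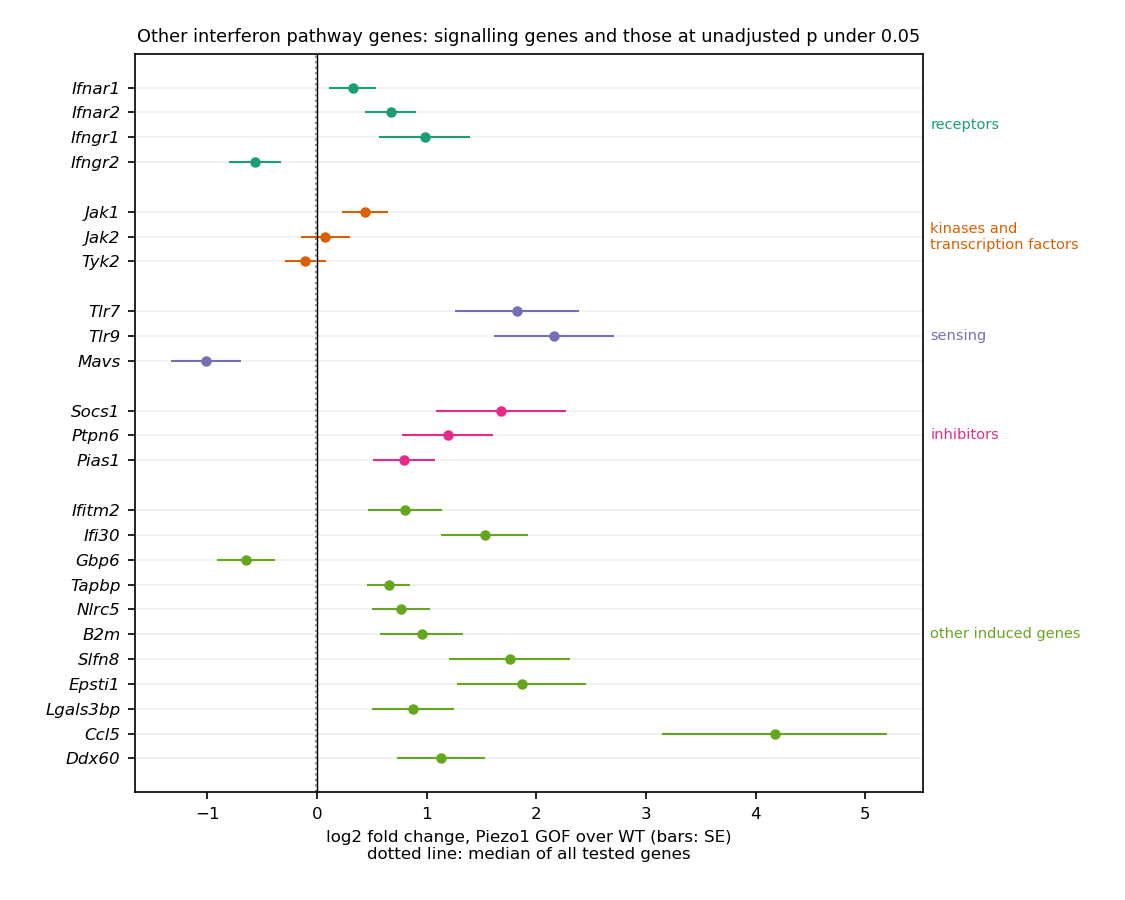
Log2 fold change (Piezo1 GOF over WT) with its SE, by role, with the median of all tested genes as a dotted line. Genes drawn are Ifnar1, Ifnar2, Ifngr1, Ifngr2, Jak1, Jak2, Tyk2 and the other pathway genes at an unadjusted edgeR p under 0.05. Receptor and sensing genes hold values of both signs, from -1.01 for the adaptor Mavs to 2.16 for Tlr9, and Ccl5 (4.17) has the widest SE.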

How the data were processed

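RNA was turned into libraries with a RamDA-seq kit, per the labels' protocols. The expected counts per gene (estimated counts, which need not be whole) were deposited by the authors without scaling; STAR, RSEM, edgeR and the mm10 build are named in the submitters' processing notes, with no version or role. Annotation and strand setting: not given in the sources used here. Counts were rounded, filtered with filterByExpr (minimum count 10), scaled by TMM (factors 0.897 to 1.10) and tested with edgeR 4.0.16 in R 4.3.3 without covariates, and the script was tested on simulated data. SE is the fold change over the square root of F. DESeq2 1.42.0, edgeR's exact test, limma 3.58.1 (voom), other scalings and filters, a replicate block and leaving out each library (on the same genes) were alternatives. Coordinates and exon lengths are from GENCODE M21, where all 37 symbols matched. Depth and 3 libraries per group, at a common dispersion of 0.113, limit precision. Replicate libraries differed by far more than counting noise (chi-square over its degrees of freedom 41.5 to 143). The genes and lists were chosen with earlier results of these data known. By rule, every gene of the set is named, the 12 with the smallest p are given per library, and pathway genes are named at an unadjusted p under 0.05 beside receptors and kinases; 1 gene of that list is not reported here. Per-library values of other genes were added after they were seen. Marker lists cover macrophages, T and NK cells, B cells, plasmacytoid and other dendritic cells, neutrophils, endothelium, muscle, tenocytes, cartilage and erythroid cells.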

Additional observations from a re-analysis of the deposited data

How the results depend on the processing

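With 3 libraries per genotype, and under 10 CPM for many of these genes, changes of the size seen here were mostly not resolved. Over all genes, calls (higher and lower) numbered 2 and 0 by edgeR, 141 and 24 without a filter, 511 and 371 by DESeq2, 453 and 232 by the exact test, 97 and 19 by voom, 164 and 43 without WT replicate 1, and 0 and 0 with total counts and without each of the other 5 libraries, so the number of calls depended on the test, the scaling, the filter and the libraries; the cause was not tested. DESeq2 called 1 interferon-stimulated gene higher and, of the other pathway genes, 4 higher and 1 lower, and the exact test called 3 of the latter higher. At an unadjusted p under 0.05, voom gave 10 interferon-stimulated genes higher in place of 4 (11.7% of all genes were), with Isg20 not among them. Of the 4, Ifit1 was over 0.05 with RLE size factors or total counts and Ifih1 by DESeq2 or with the block. The other pathway genes that were lower at that threshold numbered 3 of 85 in the main fit (1291 of 13466 over all genes). They numbered 1 of 85 with total counts (932 of 13466), 5 of 94 without a filter (1562 of 18373) and 5 of 90 by DESeq2 (1500 of 14754). Total counts moved the median of all genes to 0.10. Signs turned for Xaf1 (0.034 with upper-quartile factors, 0.057 with total counts, 0.13 by voom), Gbp2 (0.029 with total counts) and, by voom, Ifi44 (-0.042), Parp14 (0.13) and Jak2 (-0.061). Libraries with the same number did not deviate together (r = -0.21, -0.14 and -0.05). The labels do not say whether the numbers mark pairs, and 3 libraries per genotype cannot settle it. With the replicate number as a block, 0 genes of all were called in either direction, and the signs of Mx2 (-0.074) and Xaf1 (0.16) turned. In that fit 1 other pathway gene was lower at an unadjusted p under 0.05 (805 of 13466 over all genes). Leaving out 1 library at a time, interferon-stimulated genes at an unadjusted p under 0.05 numbered 1 (without WT replicate 3) to 7 (without WT replicate 1) higher and 0 to 1 lower. In these fits 7.03% to 13.1% of all genes were higher, and 623 to 1444 of 13466 lower. The median of the interferon-stimulated genes was 0.27 to 0.54, and those without overlap numbered 5 to 15 (14 without Piezo1 GOF replicate 2) higher and 0 to 3 lower. Over all genes, the share above WT without overlap was 13.6% with all libraries and 23% without WT replicate 1. It was not computed without the other libraries, so those counts have no background. For the other pathway genes, 10 to 22 were higher and 2 to 4 lower at an unadjusted p under 0.05, beside the same shares of all genes, with a median of 0.15 to 0.42. The cause was not tested. Fold changes that changed sign ran from -0.20 to 0.62 for Ifit2, -0.16 to 1.28 for Mx2, -0.39 to 0.89 for Rsad2, -0.49 to 0.69 for Cmpk2, -0.42 to 0.57 for Xaf1, -0.062 to 0.16 for Ifi35, -0.82 to 0.86 for Ifi44, -0.36 to 0.063 for Parp14, -0.44 to 0.36 for Gbp2, -0.055 to 0.57 for Gbp3, -0.011 to 0.43 for Gbp7, -0.035 to 0.53 for Psmb9 and -0.11 to 0.18 for Jak2.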
